A study of Caenorhabditis elegans with 10 samples.

Results

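The UDP-glucuronosyltransferase (UGT) family of *C. elegans* was followed across a parent strain and 4 mutants of the methionine/S-adenosylmethionine (Met/SAM) cycle. Its members were taken by name: every gene with a symbol made of ugt- and a number and a mean above 0 over the libraries. There were 67 such genes among the 46903 genes in the expression table, and all 67 are annotated as protein coding. Of these, 52 had a mean level of at least 1 TPM (transcripts of a gene per 1000000 transcripts, a level corrected for transcript length) and were tested. The other 15 were below that level and are described at the end.

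RNA-seq was done on whole animals labelled as L4 larvae, which the methods give as late L4 to early young adult, with 2 biological replicates of each of 5 strains, or 10 libraries. The parent carries the reporter transgene *wwIs24[Pacdh-1::GFP;unc-119(+)]*, in which the *acdh-1* promoter drives GFP, and the *nhr-10(tm4695)* allele of a nuclear hormone receptor gene. The 4 other strains carry both of these and, in addition, *metr-1(ww52)*, *mtrr-1(ww56)*, *mthf-1(ww50)* or *sams-1(ww51)*. Each is 1 allele recovered from a chemical mutagenesis screen for reporter activation and backcrossed to the parent, so a strain and its allele cannot be told apart. All animals were fed *E. coli* OP50 on plates with 20 nM vitamin B12 for 48 h, after maintenance at 0.64 nM and an 18 h arrest at the first larval stage. There was no strain with intact *nhr-10*, so the values describe Met/SAM mutations in its absence.

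UGTs are membrane enzymes of the endoplasmic reticulum that join a sugar from a UDP-sugar to small fat-soluble molecules, which become more soluble and can be exported. They act in phase II of detoxification, often on compounds that cytochrome P450 enzymes have oxidised in phase I, and they also act on compounds made by the animal itself. In *C. elegans* the intestine is a main site of this chemistry, and the family is large, with most members named by sequence similarity and without a known substrate.

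The transcript of *nhr-10* was still listed at 3.13 to 6.19 TPM in all 10 libraries, and each of the 4 mutated cycle genes was higher in all 8 mutant libraries than in the parent, its own mutant included (*metr-1*: 22.84 to 24.46 TPM in the parent and 130.62 to 242.40 TPM in the mutants). Transcript levels therefore did not check the genotypes. Markers of intestine, hypodermis, body wall muscle, neurons and germline were all found, and none was at 0 in any library. The developmental markers differed between strains, and also between the 2 libraries of a strain. The mean log2(TPM + 1) of 22 molting genes was 4.01 to 4.74 in the parent and 5.57 to 7.67 in the mutants. That of 14 adult-onset genes was 6.20 to 7.68 in the parent, 4.76 to 7.73 in *mthf-1(ww50)* and 4.61 to 7.09 in *metr-1(ww52)*. It was 4.54 to 6.45 in *sams-1(ww51)* and 3.31 to 6.01 in *mtrr-1(ww56)*, and only *mtrr-1(ww56)* did not overlap the parent. Molting stage and genotype therefore cannot be told apart for any gene below, and the part of stage in each result was not tested.

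The family was spread over a wide range of levels. Over the 10 libraries, 13 members had a mean of at least 20 TPM, 8 had 10 to 20, 11 had 5 to 10 and 20 had 1 to 5. Between 47 and 53 of the 67 members reached 1 TPM in any 1 library, and 62 were never listed at 0. The 6 most abundant were *ugt-22*, *ugt-47*, *ugt-62*, *ugt-44*, *ugt-46* and *ugt-23*, with means of 64.4, 57.7, 55.6, 49.6, 45.1 and 33.2 TPM. Neighbours in this order overlapped in their libraries. The steadiest of the tested members were *ugt-64* and *ugt-50*, whose highest library was 1.51 and 1.54 times the lowest, against a median of 3.64 times for the 52. Exons of *ugt-64* overlap C07G3.10 by 72 bases and those of *ugt-50* overlap *nhr-26* by 340 bases, so their levels could include reads of these. The least steady were *ugt-57* and *ugt-42*, at 229 and 161 times, both close to 0 TPM in the parent.

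**Figure D1:**
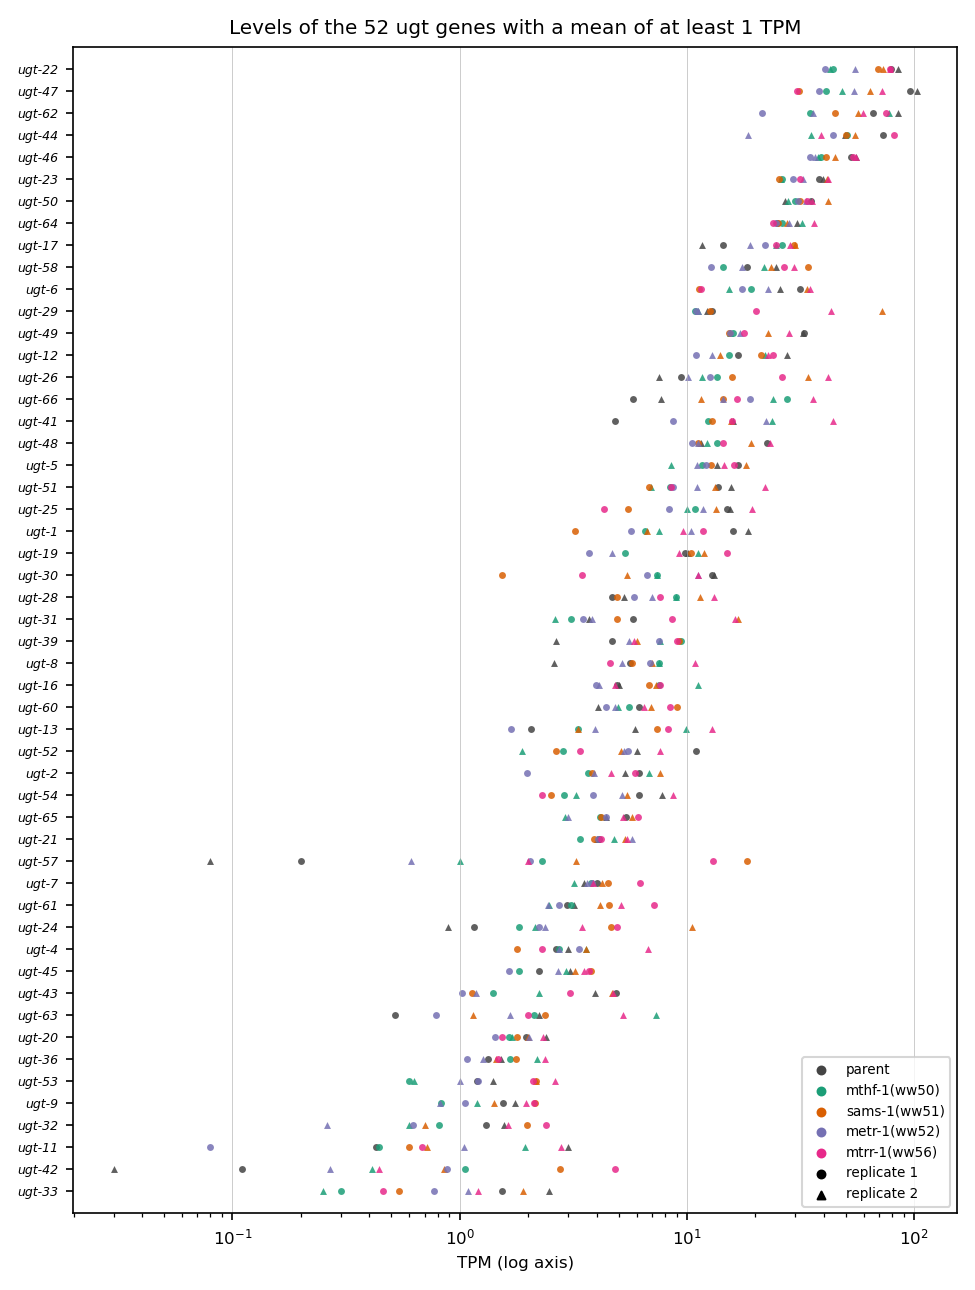
TPM on a log axis (x) of the 52 *ugt* genes tested (y, ordered by mean), 1 point per library, coloured by strain, with circles for replicate 1 and triangles for replicate 2. Most genes spread over less than 10-fold, whereas *ugt-57* and *ugt-42* run from 0.08 and 0.03 TPM in the parent to 18.34 and 4.84 TPM in mutant libraries.

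Summed over the family, the transcripts made up 0.0531 to 0.0994% of all TPM. The sum was 815.81 and 832.36 TPM in the 2 parent libraries. It was lower in both *metr-1(ww52)* libraries, at 531.05 and 600.36 TPM, and in both *mthf-1(ww50)* libraries, at 603.68 and 672.71 TPM. It was 662.57 and 889.39 TPM in *sams-1(ww51)* and 805.32 and 994.19 TPM in *mtrr-1(ww56)*, overlapping the parent in both cases. The 6 most abundant members held 49.6 and 50.1% of the family sum in the parent and 34.7 to 43.6% in the 8 mutant libraries, with no overlap. The rest of the family thus held a larger share in every mutant library than in either parent library. The 6 were ranked over all libraries, and were the highest in both parent libraries but not in every mutant library. In replicate 2 of *mtrr-1(ww56)*, *ugt-41* was 43.87 TPM and *ugt-44* 38.81. In replicate 2 of *sams-1(ww51)*, *ugt-29* was 72.45 TPM and *ugt-23* 41.28. With 2 libraries per strain, an exact permutation test of such a sum cannot give a p below 0.333, and none is printed.

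**Figure D2:**
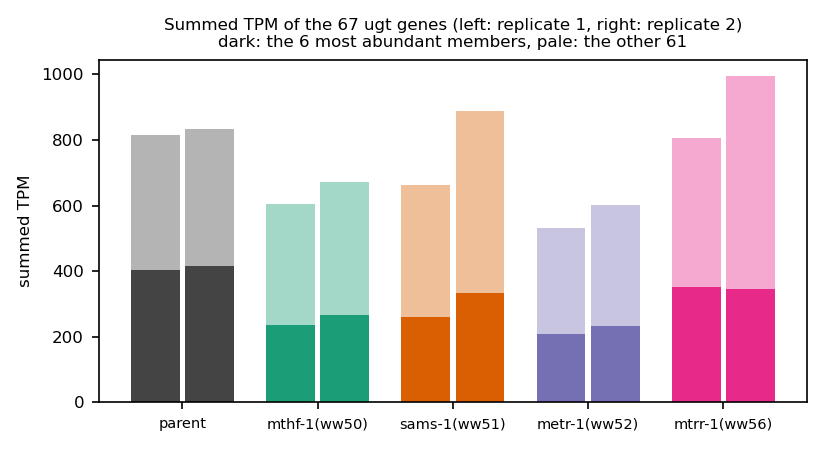
Summed TPM (y) of the 67 *ugt* genes in each library, by strain (x), with replicate 1 on the left and replicate 2 on the right. The dark lower part of each bar is the 6 most abundant members, which hold 49.6 to 50.1% of the bar in the parent and 34.7 to 43.6% in the mutants.

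Each mutant was then compared with the parent to see which members differ when the gene of a given cycle enzyme is mutated. MTHF-1 makes the methyl donor, METR-1 (methionine synthase) transfers the methyl group with vitamin B12 as cofactor, MTRR-1 keeps METR-1 active, and SAMS-1 makes SAM from methionine. A gene was called when the fold change exceeded 1.5 and the p-value of limma (one model over all 10 libraries, Benjamini-Hochberg adjustment over 14418 genes) was under 0.01. All of these comparisons share the same 2 parent libraries. By that rule 0 of the 52 members were called in any mutant, in the mean of the 4 mutants, or in *sams-1(ww51)* against the other mutants. Of all genes tested, the limma fit called 0.291% in *metr-1(ww52)*, 0.187% in *mthf-1(ww50)*, 0.132% in *mtrr-1(ww56)*, 0.0763% in *sams-1(ww51)* and 0.243% for the mean of the mutants, so this fit called few genes of any kind. At an unadjusted limma p under 0.05 there were 14 members in *mthf-1(ww50)*, 12 in *metr-1(ww52)*, 13 in *sams-1(ww51)*, 9 in *mtrr-1(ww56)* and 13 for the mean of the mutants. These were 26.9, 23.1, 25, 17.3 and 25% of the members, beside 11.9, 12.5, 18.2, 26.0 and 19.5% of all genes. With the replicate number as a block, which takes out what libraries of equal number share, *ugt-17* was called as higher in *mtrr-1(ww56)* and *sams-1(ww51)*, and *ugt-17* and *ugt-39* for the mean of the mutants. That fit called 3.11, 2.46 and 2.81% of all genes as higher in these comparisons, so 1 or 2 members of 52 is near the background.

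The strains differed in which way the family lay. In *metr-1(ww52)*, 29 of the 52 members (55.8%) were below both parent libraries in both replicates and 8 (15.4%) were above, beside 15.5% below and 32.7% above among all genes tested. In *mthf-1(ww50)*, 22 members (42.3%) were below and 11 (21.2%) above, beside 13.8 and 30.3% of all genes. In *sams-1(ww51)*, 11 (21.2%) were below and 15 (28.8%) above, beside 18.8 and 32.2%. In *mtrr-1(ww56)*, 6 (11.5%) were below and 19 (36.5%) above, beside 22.1 and 34.6%. The share of members below the parent thus exceeded that of all genes in *metr-1(ww52)* and *mthf-1(ww50)*, lay near it in *sams-1(ww51)* and was under it in *mtrr-1(ww56)*. The share in *metr-1(ww52)* was 59.6 and 65.4% after median-ratio scaling and quantile normalization, beside 24 and 23.6% of all genes, and the share in *mthf-1(ww50)* was 44.2 and 48.1%, beside 21.5 and 23.5%. In *sams-1(ww51)* the balance turned with these scalings, to 12 members below and 12 above and to 15 below and 10 above, and the share below stayed near that of all genes (23.1 and 28.8%, beside 27.2 and 30.1%). In *mtrr-1(ww56)* it was 15.4% under both, beside 30.5 and 31.1%.

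The median log2 fold change of the 52 members, on the log2(TPM + 1) scale, showed the same order. It was -0.33 in *metr-1(ww52)* and -0.23 in *mthf-1(ww50)*, beside 0.09 and 0.12 for all genes. It was 0.19 in *mtrr-1(ww56)*, beside 0.05 for all genes, and 0.04 in *sams-1(ww51)*, beside 0.04. The median of the members in *sams-1(ww51)* turned to -0.02 and -0.11 under the other scalings, and those in the other 3 mutants kept their sign. Intestinal markers moved partly with this order, and not as 1 group. The summed level of 7 such genes (*ges-1*, *elt-2* and others) was 4998 to 6046 TPM in the parent, 3114 to 3642 in *metr-1(ww52)*, 3216 to 3524 in *mthf-1(ww50)*, 4340 to 4640 in *sams-1(ww51)* and 3243 to 4465 in *mtrr-1(ww56)*. This sum is carried by the abundant markers. By single genes, 4 of the 7 were below both parent libraries in *metr-1(ww52)*, 5 in *mthf-1(ww50)*, 2 in *mtrr-1(ww56)* and 2 in *sams-1(ww51)*, while *elt-2* was above in all but *mtrr-1(ww56)*, *ges-1* was above in *mtrr-1(ww56)* and *sams-1(ww51)*, and *spl-1* was above in *sams-1(ww51)*. The mean log2(TPM + 1) of the 7 overlapped the parent in *sams-1(ww51)*, at 7.18 to 7.36 beside 7.26 to 7.43. Other tissue lists moved as well. Of 5 hypodermal markers, *dpy-7*, *rol-6* and *sqt-3*, which are also in the molting list, were above the parent in all 4 mutants. Of the others, *col-93* was below both parent libraries in *metr-1(ww52)* and *sams-1(ww51)*, and *elt-3* overlapped the parent in every mutant. The summed level of the 5 was 2031 to 2192 TPM in the parent and 2342 to 3241 TPM in the mutants. The summed level of 4 germline markers was 632 to 735 TPM in the parent, 532 to 588 in *sams-1(ww51)* and 357 to 505 in *mtrr-1(ww56)*, and overlapped the parent in the other mutants. That of 4 neuronal markers was 44.8 to 46.2 TPM in the parent, 61.7 to 64.3 in *mtrr-1(ww56)* and 49.3 to 53.9 in *sams-1(ww51)*, and overlapped it in the others. The part of these tissues in the members' levels was not tested, and in whole animals fewer cells of a type and less RNA per cell cannot be told apart.

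**Figure D3:**
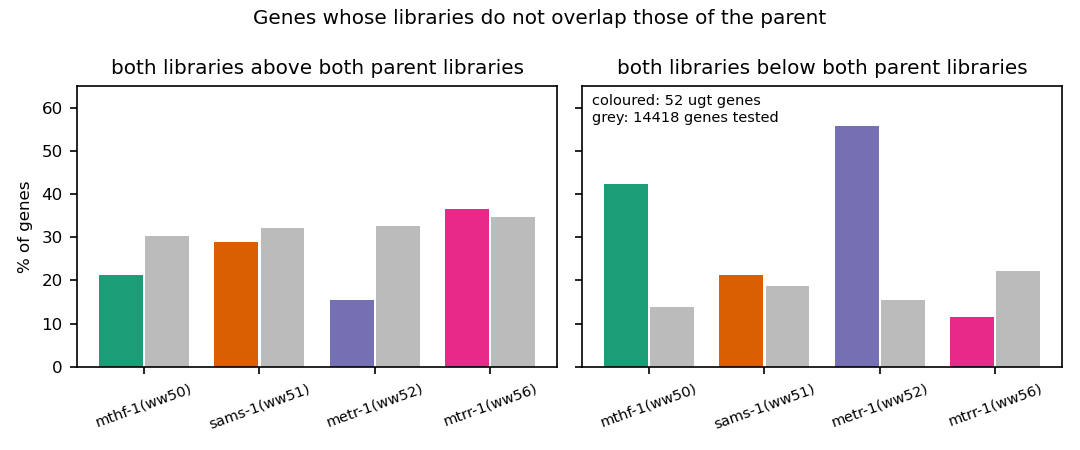
Percent of genes (y) whose 2 libraries in a mutant (x) both lie above (left) or both below (right) the 2 parent libraries, coloured for the 52 *ugt* genes and grey for the 14418 genes tested. The share below is 55.8% of *ugt* genes in *metr-1(ww52)* and 42.3% in *mthf-1(ww50)*, beside 15.5 and 13.8% of all genes.

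Across all 4 mutants, 7 members (13.5%) were above both parent libraries in every one of the 8 mutant libraries: *ugt-17*, *ugt-39*, *ugt-66*, *ugt-24*, *ugt-26*, *ugt-57* and *ugt-42*. This share was near that of all genes (12.9%). On the other side, 5 members (9.62%) were below in all 8: *ugt-22*, *ugt-47*, *ugt-49*, *ugt-1* and *ugt-30*. Of all genes, 3.52% were below in all 8 mutant libraries. These counts moved with the scaling. Median-ratio scaling gave 6 members above and 6 below (11.5% each, beside 8.15 and 7.59% of all genes), without *ugt-26* among those above. Quantile normalization gave 4 above and 8 below (7.69 and 15.4%, beside 6.73 and 7.96%), with *ugt-17*, *ugt-24*, *ugt-57* and *ugt-66* still above. The 5 members named as below were so under both.

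*ugt-17* (WBGene00007422, chromosome V, 10102592 to 10104964, minus strand, WBcel235) had the smallest limma adjusted p of the family without the block for the mean of the mutants and in *mthf-1(ww50)*, *mtrr-1(ww56)* and *sams-1(ww51)*, but not in *metr-1(ww52)*. It stood at 14.38 and 11.59 TPM in the parent, 26.22 and 24.63 in *mthf-1(ww50)*, 29.66 and 29.91 in *sams-1(ww51)*, 21.95 and 18.97 in *metr-1(ww52)*, and 24.56 and 28.40 in *mtrr-1(ww56)*. All 8 mutant libraries were above the parent, the closest being *metr-1(ww52)*. The log2 fold change of the mean of the mutants was 0.92 ± 0.12 (SE, n = 8 against 2), with a limma adjusted p of 0.0200. It was 1.15 ± 0.15 in *sams-1(ww51)* (adjusted p = 0.0352, limma), 0.98 in *mtrr-1(ww56)* (0.0445), 0.92 in *mthf-1(ww50)* (0.0495) and 0.62 in *metr-1(ww52)* (0.146). With the replicate block the limma adjusted p was 0.00639 for the mean, 0.00699 in *sams-1(ww51)* and 0.00880 in *mtrr-1(ww56)*. Those calls did not outlast the loss of most single libraries: leaving out each library in turn with the block, the call was made in 2 of 10 fits for the mean (adjusted p 0.00655 to 0.0609, limma), in 2 of 10 for *sams-1(ww51)* (0.00600 to 0.0480) and in 0 of 10 for *mtrr-1(ww56)* (0.0184 to 0.0510).

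*ugt-39* (WBGene00017329, V, 7157142 to 7159235, plus strand) was 4.70 and 2.66 TPM in the parent, 9.37 and 7.59 in *mthf-1(ww50)*, 9.25 and 6.03 in *sams-1(ww51)*, 7.52 and 5.56 in *metr-1(ww52)*, and 9.05 and 5.83 in *mtrr-1(ww56)*. Replicate 1 was the higher of the pair in all 5 strains, and within each replicate number every mutant was above the parent. The mean log2 fold change was 0.88 ± 0.25 (SE), with a limma adjusted p of 0.129, or 0.00653 with the block. Without any 1 of the 10 libraries, the block gave adjusted p-values of 0.0117 to 0.0650 in limma and no call.

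*ugt-66* (WBGene00016013, III, 6192116 to 6194580, minus strand) was 5.79 and 7.70 TPM in the parent. It was 27.52 and 23.97 TPM in *mthf-1(ww50)*, 14.43 and 11.57 in *sams-1(ww51)*, 19 and 14.46 in *metr-1(ww52)*, and 16.62 and 35.97 in *mtrr-1(ww56)*. The mutants did not overlap the parent, and *mthf-1(ww50)* lay above both *sams-1(ww51)* libraries. The mean TPM of the mutants was 3.03 times the parent mean, and the difference in log2(TPM + 1) was 1.39 ± 0.27 (SE), with a limma adjusted p of 0.0616. With the block it was 0.0291, and 0.00839, a call, without replicate 1 of *mtrr-1(ww56)*.

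The other 4 of the 7 were highest in *mtrr-1(ww56)* or *sams-1(ww51)*. *ugt-24* (WBGene00016762, IV, 6206821 to 6210720) was 1.16 and 0.89 TPM in the parent, 1.82 to 2.37 TPM in *metr-1(ww52)* and *mthf-1(ww50)*, 4.90 and 3.45 in *mtrr-1(ww56)*, and 4.63 and 10.50 in *sams-1(ww51)*. Its log2 fold change was 1.99 ± 0.33 (SE) in *sams-1(ww51)*, with a limma adjusted p of 0.0752, and 0.56 ± 0.33 in *mthf-1(ww50)*, with 0.547. *ugt-26* (WBGene00015695, on chromosome I) was 9.43 and 7.54 TPM in the parent, 10.15 to 13.50 in *metr-1(ww52)* and *mthf-1(ww50)*, 15.75 and 34.08 in *sams-1(ww51)*, and 26.08 and 41.93 in *mtrr-1(ww56)*. For *ugt-26* the libraries of *mtrr-1(ww56)* and *sams-1(ww51)* were all above those of the other mutants, but its limma adjusted p was 0.0670 and 0.138 in these strains.

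*ugt-57* (WBGene00017154, X, 6991727 to 6994162, plus strand) and *ugt-42* (WBGene00017959, on V) were close to 0 in the parent. *ugt-57* was 0.20 and 0.08 TPM there, 2.29 and 1.00 in *mthf-1(ww50)*, 2.03 and 0.61 in *metr-1(ww52)*, 18.34 and 3.24 in *sams-1(ww51)*, and 12.96 and 1.99 in *mtrr-1(ww56)*. *ugt-42* was 0.11 and 0.03 TPM in the parent and 0.27 to 4.84 TPM in the mutants, with its highest libraries also replicate 1 of *mtrr-1(ww56)* and *sams-1(ww51)*. In both genes replicate 1 exceeded replicate 2 in every strain, the parent included. The limma adjusted p for the mean of the mutants was 0.207 for *ugt-57* (log2 1.91 ± 0.71, SE) and 0.352 for *ugt-42* (0.99 ± 0.52). With the block it was 0.0387 and 0.123. Replicate differences of this kind were not particular to the family: replicate 2 was higher in all 5 strains for 7 members (13.5%) and replicate 1 for 4 (7.69%), beside 18.6 and 11.4% of all genes tested. In *ugt-57*, 76 bases of exon overlap F01E11.8 on the other strand, and the default settings with which RSEM assigned the reads do not use strand. Reads of the 2 genes in that stretch therefore cannot be told apart by strand.

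**Figure D4:**
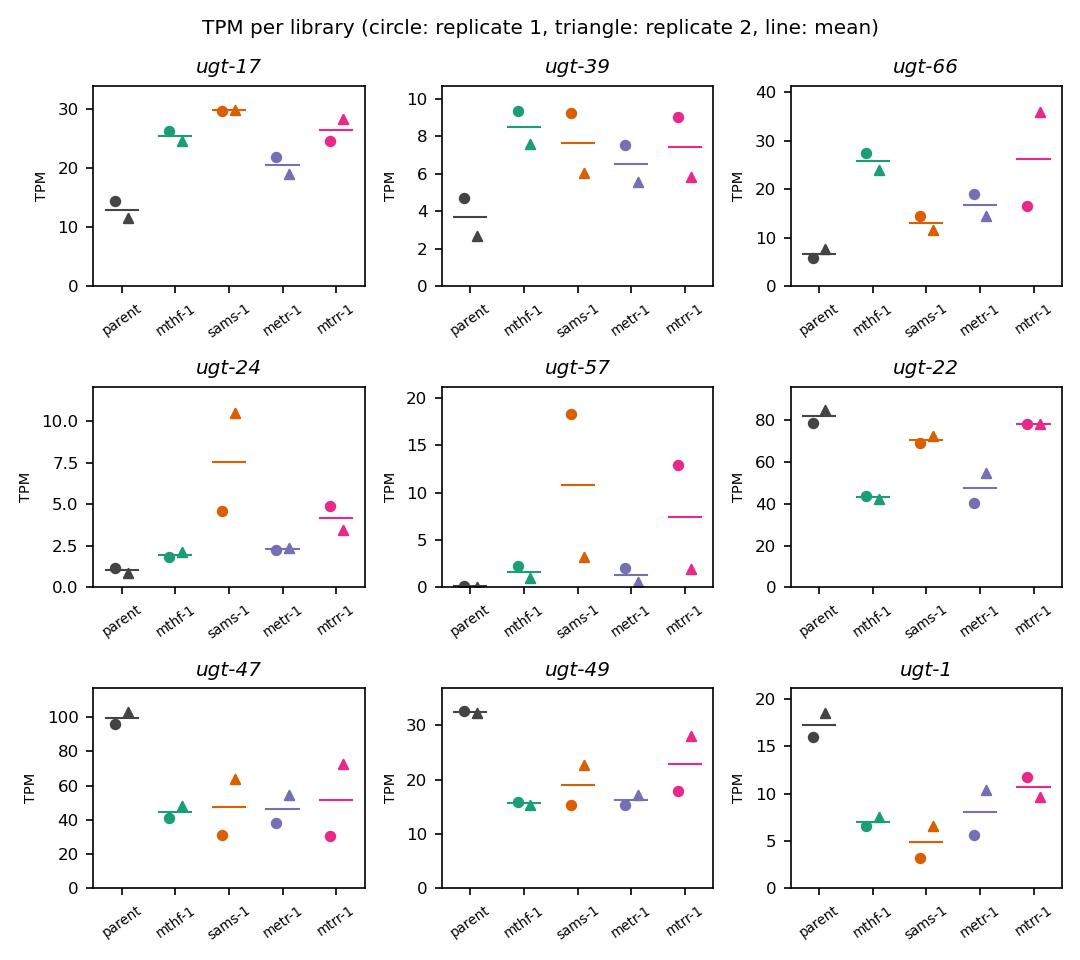
TPM (y, from 0) of 9 *ugt* genes in each library, by strain (x), with circles for replicate 1, triangles for replicate 2 and lines for the mean of the pair. In *ugt-17*, *ugt-39*, *ugt-66*, *ugt-24* and *ugt-57* all 8 mutant libraries are above the parent, and in *ugt-22*, *ugt-47*, *ugt-49* and *ugt-1* all 8 are below it.

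The members that were lower in the mutants included the 2 most abundant of the family. *ugt-47* (WBGene00011006, V, 10096305 to 10098597, minus strand) was the highest member in the parent, at 95.62 and 102.64 TPM. It was 40.84 and 48.18 TPM in *mthf-1(ww50)*, 31.00 and 64.04 in *sams-1(ww51)*, 38.07 and 54.21 in *metr-1(ww52)*, and 30.38 and 72.28 in *mtrr-1(ww56)*. The 4 strain means were close together, at 44.5 to 51.3 TPM, and replicate 2 was the higher in all 5 strains. The log2 fold change was -1.06 to -1.14 in the 4 mutants and -1.11 ± 0.36 (SE) for their mean, with a limma adjusted p of 0.166, or 0.0303 with the block. *ugt-47* lies 3994 bases from *ugt-17* on the same strand, with 1 protein-coding gene between them, and the 2 genes lay on opposite sides of the parent in all 8 mutant libraries. An exon of *ugt-47* overlaps *srd-49* by 98 bases.

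*ugt-22* (WBGene00007455, IV, 13639260 to 13644567, plus strand), which has been linked to the handling of the anthelmintic albendazole in *C. elegans*, separated the mutants into pairs. It was 78.87 and 85.08 TPM in the parent, 78.41 and 78.27 in *mtrr-1(ww56)* and 68.96 and 72.51 in *sams-1(ww51)*. It was 44.03 and 42.47 TPM in *mthf-1(ww50)* and 40.60 and 54.81 in *metr-1(ww52)*, below all libraries of the other 3 strains. The log2 fold change was -0.91 ± 0.15 (SE) in *mthf-1(ww50)* (adjusted p = 0.0553, limma) and -0.78 in *metr-1(ww52)* (0.0745), and with the block the adjusted p was 0.0266 and 0.0304. In *sams-1(ww51)* it was -0.21 and in *mtrr-1(ww56)* -0.06, with limma adjusted p-values of 0.500 and 0.792. Exons of *ugt-22* overlap several short 21U RNA genes and *srz-29*, so its level could include reads of these.

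*ugt-46*, the fifth most abundant member, was also lowest in *metr-1(ww52)* and *mthf-1(ww50)*. It was 52.90 and 55.31 TPM in the parent and 53.54 and 55.15 TPM in *mtrr-1(ww56)*, but 39.04 and 37.63 in *mthf-1(ww50)*, 40.86 and 44.73 in *sams-1(ww51)*, and 34.80 and 36.67 in *metr-1(ww52)*. The libraries of a strain differed little, and *mtrr-1(ww56)* alone overlapped the parent. In *metr-1(ww52)* the log2 fold change was -0.59 ± 0.10 (SE, limma adjusted p = 0.0558), the smallest adjusted p of the family in that strain, and in *mthf-1(ww50)* it was -0.49 (0.115).

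*ugt-49* and *ugt-1* lie 21401 bases apart on chromosome V. *ugt-49* was 32.67 and 32.29 TPM in the parent, 15.39 to 17.16 TPM in *metr-1(ww52)* and *mthf-1(ww50)*, 15.33 and 22.72 in *sams-1(ww51)*, and 17.87 and 28.11 in *mtrr-1(ww56)*. *ugt-1* was 15.97 and 18.49 TPM in the parent, 6.55 and 7.54 in *mthf-1(ww50)*, 3.23 and 6.64 in *sams-1(ww51)*, 5.66 and 10.39 in *metr-1(ww52)*, and 11.79 and 9.62 in *mtrr-1(ww56)*. Both were nearest to the parent in *mtrr-1(ww56)*. The mean log2 fold change was -0.81 ± 0.19 (SE) for *ugt-49* and -1.14 ± 0.27 for *ugt-1*, with limma adjusted p-values of 0.0918 and 0.0912, or 0.0254 and 0.0268 with the block. *ugt-2*, which follows *ugt-1* after 980 bases, had log2 fold changes between -0.81 and -0.06 in the 4 mutants, and overlapped the parent in all mutants but *metr-1(ww52)*, where both libraries were below it.

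*ugt-30* was 12.89 and 13.18 TPM in the parent and 1.54 to 11.19 TPM in the mutants, with replicate 2 higher in all 5 strains. Its lowest value was in replicate 1 of *sams-1(ww51)*, and the limma adjusted p for the mean was 0.277. *ugt-52* and *ugt-43* were also among the 6 lowest by mean log2 fold change, at -0.88 ± 0.33 and -0.78 ± 0.35 (SE), with limma adjusted p-values of 0.210 and 0.281. *ugt-52* was 11.01 and 6.04 TPM in the parent and 1.87 to 5.48 TPM in *metr-1(ww52)*, *mthf-1(ww50)* and *sams-1(ww51)*, and 1 *mtrr-1(ww56)* library, at 7.59 TPM, overlapped the parent. *ugt-43* was below both parent libraries in *metr-1(ww52)* and *mthf-1(ww50)* and overlapped them in *mtrr-1(ww56)* and *sams-1(ww51)*. Of the remaining abundant members, *ugt-62*, *ugt-44* and *ugt-23* were below both parent libraries in both *metr-1(ww52)* libraries, at 21.36 and 35.75, 43.86 and 18.51, and 29.27 and 32.45 TPM, against 65.98 and 84.39, 72.96 and 49.51, and 38.25 and 39.74 TPM in the parent. In *mtrr-1(ww56)* each of these 3 overlapped the parent.

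**Figure D5:**
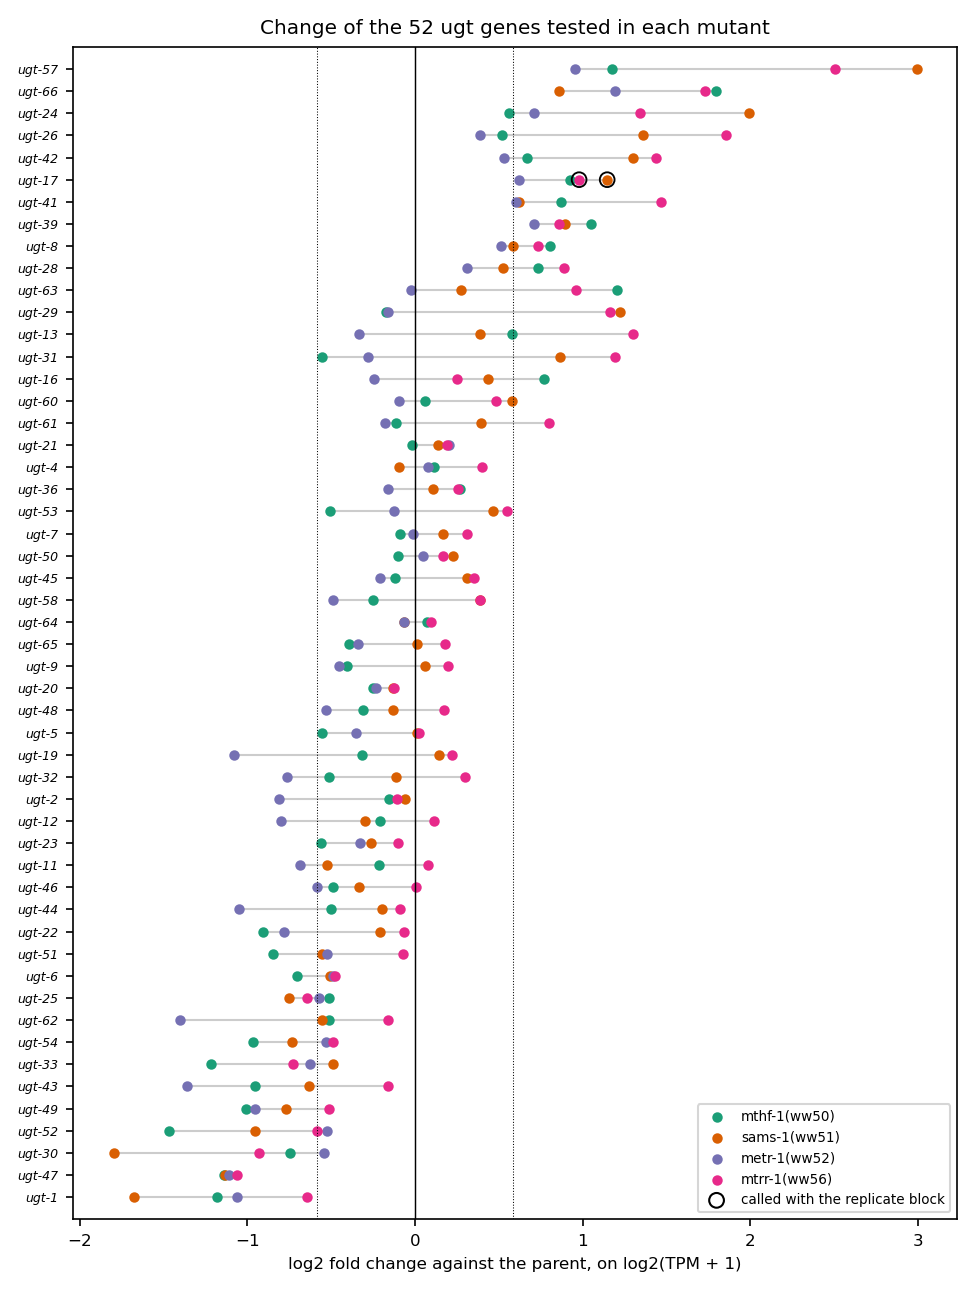
Log2 fold change against the parent on the log2(TPM + 1) scale (x) of the 52 *ugt* genes (y, ordered by mean change), 1 point per mutant; dotted lines mark 1.5-fold and rings mark the values called with the replicate block. In 47 of the 52 rows *mtrr-1(ww56)* lies to the right of *metr-1(ww52)*, and only *ugt-17* is ringed, in *mtrr-1(ww56)* and in *sams-1(ww51)*. All rows rest on the same libraries, and no share of all genes stands beside the 47.

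*sams-1(ww51)* was also set against the mean of the other mutants, since SAMS-1 acts on methionine and the other enzymes act in making it. No member was called with limma, with or without the block, and 0.0% of all genes were. At an unadjusted limma p under 0.05 there were 6 members (11.5%), beside 7.94% of all genes, and 9 members with the block (17.3%, beside 16.9%). The smallest adjusted p was that of *ugt-24*, which was higher in *sams-1(ww51)* by 1.12 ± 0.27 in log2 (SE, adjusted p = 0.360, limma). *ugt-1* was lower by this measure and *ugt-22* higher, with log2 differences of -0.72 and 0.37. *ugt-53* did not split this way: it was 2.16 and 2.17 TPM in *sams-1(ww51)* and 2.10 and 2.63 in *mtrr-1(ww56)*, against 0.60 and 0.63 in *mthf-1(ww50)*, 1.2 and 1.00 in *metr-1(ww52)* and 1.19 and 1.40 in the parent.

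Position in the genome went with level. Chromosome V holds 42 of the 67 members, IV holds 12, I holds 5, X holds 4, III holds 3 and II holds 1. In 10 runs, 31 members follow each other with no other protein-coding gene between, and in 9 of these runs all members are on 1 strand. Of the 15 members under 1 TPM, 14 were among the 31 members in such runs and 1 (*ugt-59*) was among the 36 outside them. Within a run, members differed widely in level. The longest, 7 genes on chromosome V between 4892588 and 4911399, ran from 0.0730 TPM for *ugt-10* to 6.35 TPM for *ugt-8*. The run *ugt-5*, *ugt-4*, *ugt-6* and *ugt-3* spanned 0.0690 to 22.3 TPM. Members of a run are similar genes, and how the read assignment shared reads between close copies was not tested.

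The 15 members below the filter had means of 0.00600 to 0.927 TPM. The highest single values were 2.21 TPM for *ugt-59* in replicate 1 of *mtrr-1(ww56)*, 1.98 TPM for *ugt-18* in replicate 2 of *sams-1(ww51)* and 1.48 TPM for *ugt-14* in replicate 2 of *mtrr-1(ww56)*. In the parent these genes were 0.26 and 0.47, 0.02 and 0.15, and 0.25 and 0.09 TPM. These 3 genes were picked by their highest single value, so that choice fixed which library had the largest gap to the parent. Every mutant library was above the parent for *ugt-59* (0.62 to 2.21 TPM) and *ugt-14* (0.40 to 1.48 TPM), and *ugt-18* overlapped it. They were not tested.

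Genes of UDP-sugar metabolism and transport, and genes that export the products, were compared with the family. Of the first kind, 5 genes were tested (*sqv-4*, *rml-1*, *gale-1*, *sqv-1* and *sqv-7*). Without the block, 0 of them were called with limma in any comparison. In *metr-1(ww52)*, *mthf-1(ww50)*, *mtrr-1(ww56)* and *sams-1(ww51)*, 2, 1, 2 and 3 of the 5 had an unadjusted limma p under 0.05. These were 40, 20, 40 and 60% of the list, beside 12.5, 11.9, 26.0 and 18.2% of all genes, and 1 gene of 5 is already 20%. *sqv-4*, the UDP-glucose dehydrogenase, was 40.95 and 42.44 TPM in the parent and 50.23 to 79.48 TPM in the 8 mutant libraries, without overlap (log2 0.55 ± 0.16, SE, limma adjusted p = 0.132). Of all genes, 12.9% were likewise above both parent libraries in all 8. *sqv-1*, the decarboxylase that turns UDP-glucuronic acid into UDP-xylose, was 13.74 and 23.09 TPM in *mtrr-1(ww56)* and 25.86 and 42.74 in the parent. It was called as lower in *mtrr-1(ww56)* with the block (log2 -0.86, adjusted p = 0.00663, limma) and not without it (0.228). With the block, 1.06% of all genes were called as lower in that strain.

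Of 8 *mrp* genes, which encode ABC transporters of the type that exports conjugates, 0 were called with limma without the block. *mrp-2* was 3.10 and 2.92 TPM in the parent, 8.86 and 7.73 in *sams-1(ww51)*, 10.18 and 7.43 in *mtrr-1(ww56)* and 3.48 to 4.64 in *metr-1(ww52)* and *mthf-1(ww50)*. It was called as higher with the block in *sams-1(ww51)* (log2 1.21, adjusted p = 0.00572, limma), in *mtrr-1(ww56)* (1.28, 0.00469) and for the mean (0.78, 0.00908). That fit called 2.46, 3.11 and 2.81% of all genes as higher in these comparisons. How these calls hold with single libraries left out is not given for *mrp-2*. Of 11 regulators of detoxification genes, 10 were tested and 0 were called with limma with or without the block, 1 or 2 being under an unadjusted p of 0.05 in each mutant. *skn-1*, the NRF-type factor of phase II genes, was 95.91 and 83.35 TPM in the parent and 67.46 to 94.99 in the mutants, and both libraries were below the parent in *mtrr-1(ww56)* alone. *elt-2*, the intestinal GATA factor, was 14.27 and 10.53 TPM in the parent. It was above both in *metr-1(ww52)* (17.56 and 19.57 TPM), *mthf-1(ww50)* (15.93 and 19.13) and *sams-1(ww51)* (16.48 and 16.25), and overlapped them in *mtrr-1(ww56)* (12.29 and 13.02). Among those picked by value, *nhr-176* was 5.55 and 4.65 TPM in the parent, 2.89 and 2.45 in *metr-1(ww52)* and 3.54 and 3.45 in *mthf-1(ww50)*. It overlapped the parent in *sams-1(ww51)* (5.22 and 6.30) and was above it in *mtrr-1(ww56)* (6.09 and 6.05). Its limma adjusted p in *metr-1(ww52)* was 0.107. *daf-12* and *wdr-23*, also picked by value, were above both parent libraries in every mutant library, as were 12.9% of all genes. Of the other detoxification families, 45 cytochrome P450 genes and 33 glutathione transferases were tested and 0 of either were called with limma without the block. With the block, *cyp-42A1* was called as higher in *sams-1(ww51)*, in *mtrr-1(ww56)* and for the mean, beside the shares of all genes given for *mrp-2*. In *mtrr-1(ww56)* the block also called *cyp-14A2* as higher and *cyp-31A2* and *cyp-31A5* as lower, beside 3.11% of all genes called as higher and 1.06% as lower, and no glutathione transferase was called with it. In *metr-1(ww52)*, *mthf-1(ww50)*, *mtrr-1(ww56)* and *sams-1(ww51)*, 4, 8, 16 and 12 P450 genes had an unadjusted limma p under 0.05, or 8.89, 17.8, 35.6 and 26.7% of them. For the glutathione transferases there were 12, 13, 12 and 7, or 36.4, 39.4, 36.4 and 21.2%. The shares of all genes were 12.5, 11.9, 26.0 and 18.2%. In the same order of strains, the median log2 fold change of the glutathione transferases was -0.21, -0.27, 0.11 and -0.15. That of the P450 genes was -0.06, -0.06, 0.40 and 0.17. The medians of all genes were 0.09, 0.12, 0.05 and 0.04.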

How the data were processed

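The authors deposited TPM values, 1 column per library. They sequenced 100 bp read pairs on a BGISEQ-500, mapped them with bowtie2 to WormBase WS271 and ran RSEM with its default settings, which do not use strand. The submitters' processing notes also name DESeq2 and R 3.6.3, and the study gives adjusted p-values for these libraries, which were not used. All 10 columns were matched to samples by name, and 0 were left unassigned. TPM is rounded to 2 decimals and keeps no depth, so counting error is unknown, and RSEM shares reads between similar copies, which can move values between close *ugt* genes. Symbols were matched for 44018 of 46903 genes, and positions are from the Ensembl WBcel235 annotation, which was not compared with WS271 at the base level.

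The values were taken as log2(TPM + 1), a scale that understates the change of low genes, and fitted with limma (version 3.58.1, R 4.3.3) for the 14418 genes that averaged 1 TPM or more. Each strain had its own mean, limma's mean-variance trend was on, and p-values were two-sided and adjusted by the Benjamini-Hochberg procedure. A call needed a fold change over 1.5 and an adjusted p-value under 0.01, the cutoffs the study uses. Nothing in the labels says that equal replicate numbers were grown together. The differences between replicates nevertheless correlated across genes in every one of the 10 pairs of strains (0.166 to 0.736), so results of a model that includes the replicate number as a block are given where they change a call. The members and gene lists were chosen with earlier results of these data known. The members described singly are those called in any fit, the 6 most abundant, the 6 highest and 6 lowest by mean log2 fold change, the 4 with the smallest adjusted p-value for *sams-1(ww51)* against the other mutants, and the 3 untested ones with the highest single value. *ugt-64*, *ugt-50*, *ugt-2*, *ugt-10*, *ugt-8* and the run of *ugt-5* are not covered by this rule and were picked once their values were known. Settings were varied 1 at a time: pseudocount 0.1, no filter or one at 5 TPM, median-ratio scaling, quantile normalization, no trend, a cutoff of 0.05, only the groups compared, the block, and each library left out. Leaving each library out together with the block was added after the data were seen. Python 3.11.15, pandas 2.3.3, numpy 2.4.6 and matplotlib 3.10.9 were used for tables and plots.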

Additional observations from a re-analysis of the deposited data

Results flagged for a closer look

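Several members were above both parent libraries in both replicates of 1 mutant and below both in another. The differences between the mutants were not tested for these genes, and none of the values was called. The strain that was below was *metr-1(ww52)* or *mthf-1(ww50)* in every case. This follows largely from the counts given above. In these strains 29 and 22 members were below both parent libraries, beside 11 in *sams-1(ww51)* and 6 in *mtrr-1(ww56)*. The 5 members below in all 8 mutant libraries could not be above in any mutant. The share of all genes with such opposite positions was not counted. Whether the pattern is more frequent in the family than among all genes was therefore not tested. Within single mutants, 30.3 to 34.6% of all genes lay above both parent libraries and 13.8 to 22.1% below both.

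*ugt-29* had the widest gap in level: it was 12.90 and 12.25 TPM in the parent, 20.05 and 42.83 TPM in *mtrr-1(ww56)*, and between 10.86 and 11.23 TPM in *metr-1(ww52)* and *mthf-1(ww50)*. Its log2 fold changes were 1.16, -0.16 and -0.17 in these strains. One *sams-1(ww51)* library had 72.45 TPM of it and the other 12.62. *ugt-31* was 1.19 in *mtrr-1(ww56)* and -0.55 in *mthf-1(ww50)*. *ugt-58* was 0.39 in *mtrr-1(ww56)* and -0.49 in *metr-1(ww52)*. *ugt-32* was 0.30 in *mtrr-1(ww56)*, -0.51 in *mthf-1(ww50)* and -0.76 in *metr-1(ww52)*. *ugt-9* was 0.20 in *mtrr-1(ww56)*, -0.40 in *mthf-1(ww50)* and -0.46 in *metr-1(ww52)*. *ugt-61* was 0.39 in *sams-1(ww51)* and 0.80 in *mtrr-1(ww56)*, but -0.18 in *metr-1(ww52)*. *ugt-53* was 0.47 in *sams-1(ww51)* and 0.55 in *mtrr-1(ww56)*, but -0.51 in *mthf-1(ww50)*.

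Among the others, *ugt-19* was 0.14 in *sams-1(ww51)* and -1.08 in *metr-1(ww52)*. *ugt-16* was 0.77 in *mthf-1(ww50)* and 0.43 in *sams-1(ww51)*, but -0.24 in *metr-1(ww52)*. *ugt-36* was 0.27 in *mthf-1(ww50)* and -0.16 in *metr-1(ww52)*. In *ugt-16* and *ugt-36* the strains *metr-1(ww52)* and *mthf-1(ww50)*, whose family medians were both below 0, lay on opposite sides of the parent.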

How the results depend on the processing

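Every comparison called 0 members under the main settings, and the counts stayed at 0 with another pseudocount, filter, scaling or trend, with only the groups compared, and without any single library, where a lone library is assumed to vary like the others. A cutoff of 0.05 called 1 member (*ugt-17*) in *sams-1(ww51)*, in *mtrr-1(ww56)*, in *mthf-1(ww50)* and for the mean of the mutants. The replicate block called 1 in *sams-1(ww51)*, 1 in *mtrr-1(ww56)* and 2 for the mean. With the block and 1 library left out, the counts ranged from 0 to 1 in *sams-1(ww51)*, where 1 was called without either replicate of *mtrr-1(ww56)*, and from 0 to 2 for the mean, with 2 called without replicate 1 and 1 without replicate 2 of *mtrr-1(ww56)*. Over all genes, the block raised the calls from 27 to 44 in *mthf-1(ww50)*, 11 to 387 in *sams-1(ww51)*, 42 to 75 in *metr-1(ww52)*, 19 to 602 in *mtrr-1(ww56)* and 35 to 460 for the mean; with only the groups compared there were 2 in *mthf-1(ww50)* and 0 in the other mutants. Of 3238 alternative values of single members, 61 had the opposite sign of the main value, 58 of them with a library left out, all for effects of at most 1.46 SE and none called. A direction was taken only from effects over 1 SE in both fits, and none reversed by that measure. Quantile normalization moved the median of all genes in *mthf-1(ww50)* from 0.12 to 0.00 and that of the members from -0.23 to -0.41. With 2 libraries per strain and no depth in TPM, small changes and members under 1 TPM cannot be resolved, and the causes of these differences between settings were not tested.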
